A study of Mus musculus with 4 samples.

Results

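The genes described here are 10 regulators of the G1 phase of the cell cycle that are expressed in T cells. They are the D-type cyclins *Ccnd2* and *Ccnd3*, the E-type cyclins *Ccne1* and *Ccne2*, the cyclin D kinases *Cdk4* and *Cdk6*, the CIP/KIP inhibitors *Cdkn1a* and *Cdkn1b*, and the INK4 inhibitors *Cdkn2c* and *Cdkn2d*. They were chosen by gene symbol from the 24369 genes listed. The rule used no measured value, but the choice was made with earlier results of these data known. All 10 had enough counts to be among the 14143 genes tested. The series asked which genes ectopic expression of the HMG-box protein Tox alters in T helper cells. Naïve CD4 T cells from spleens of wild-type C57BL/6 mice were activated in unpolarized culture with plate-bound anti-CD3 (2 μg/mL), soluble anti-CD28 (4 μg/mL) and 100 units/mL of IL-2. On day 2, the cells were transduced with an MSCV retrovirus carrying an IRES-eGFP cassette alone (EV RV) or *Tox* followed by the same cassette (Tox RV). On day 5, cells of both groups were restimulated through CD3 for 5 h, sorted as GFP+ CD4 cells and used for RNA-seq, with 2 libraries per group. Each group represents 2 mice, whose age is not given in the sources used here. Expression of *Tox* was driven by the retrovirus, so Tox RV is a model of forced expression in activated cells that took up the vector.

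Entry into the cell cycle is gated by cyclins that bind cyclin-dependent kinases (CDKs). D-type cyclins are made in response to mitogens, which in T cells are the antigen receptor, CD28 and IL-2, and with Cdk4 or Cdk6 they begin the phosphorylation of the retinoblastoma protein Rb. Phosphorylated Rb releases E2F factors, which switch on the E-type cyclins, and cyclin E with Cdk2 completes the step into S phase. INK4 proteins bind Cdk4 and Cdk6 and keep them from cyclin D, while CIP/KIP proteins bind cyclin-CDK complexes, above all those of Cdk2. In T cells the CIP/KIP protein p27 is high in resting cells and is lost on activation, and cyclin D2 and cyclin D3 are the D-type cyclins in use.

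The 4 libraries held 46989997 to 74548723 expected counts, which are RSEM's estimates of reads per gene. *Tox* itself stood at 7.22 and 3.37 TPM (transcripts per 1000000) in the EV RV libraries, and at 69.1 and 56.9 TPM in Tox RV, as the labels have it. Values of a group are given with replicate 1 before replicate 2 throughout. EV RV replicate 1 stood apart. On principal component 1, which held 58.0% of the variance, it lay at -53.8 and the others between 5.70 and 25.8, and 24.7% of its counts came from the ribosomal precursor *Rn45s*, against 7.14% to 11.97% in the others. CD4 T cell markers were high in every library (*Cd4* from 174 to 250 TPM), and summed B cell markers and summed myeloid markers did not exceed 2.28 and 2.61 TPM, with *Ms4a1* and *Pax5* at 0. Summed markers of CD8 T and NK cells were 256 and 246 TPM in EV RV against 393 and 311 TPM in Tox RV, mostly from *Nkg7*. Other genes of the list did not share that order: *Eomes* stood at 37.3 and 48.3 TPM in EV RV against 31.0 and 30.7 in Tox RV, *Klrk1* at 19.9 and 5.46 against 8.65 and 2.44, *Cd8a* was at 0.82 to 1.15 TPM and *Ncr1* at 0 throughout. The part of EV RV replicate 1 and of *Nkg7* in the results below was not tested beyond the values given without that library.

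None of the 10 genes was called between Tox RV and EV RV at an adjusted p under 0.05 (edgeR's quasi-likelihood test, Benjamini-Hochberg over the whole table). Among all genes tested 0 were called (0%), and the lowest adjusted p was 0.490. *Tox* itself, the transduced gene, was not called by this test either, at a log2 fold change of 3.68 and an adjusted p of 0.490. The lack of a call for the 10 genes in this test therefore does not show a lack of change. DESeq2 called 22 genes (0.156%), none of them among the 10, and gave *Tox* an adjusted p of 1.65e-20. At an unadjusted p under 0.05, edgeR gave 2 of the 10, *Ccnd2* and *Cdk6*, both lower in Tox RV, against 512 genes (3.62%) among all tested and 360 (2.55%) that were also lower in Tox RV. DESeq2 gave the same 2 of 10 at an unadjusted p under 0.05, against 609 genes (4.31%). In CPM, which are counts per 1000000 after edgeR's TMM scaling, the Tox RV pair lay wholly below the EV RV pair for these 2 genes, an arrangement seen in 17.4% of all genes tested. For 0 of the 10 did the Tox RV pair lie wholly above, against 18.6% of all genes, and for the other 8 the groups overlapped. Of the 10 log2 fold changes, 5 were below 0 and 5 above, with a median of -0.05 beside 0.00 for all genes tested. For 8 of the 10, the larger gap between replicates of a group exceeded the difference between groups. In these bulk libraries, fewer cells in a given phase and less RNA per cell cannot be told apart.

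**Figure D1:**
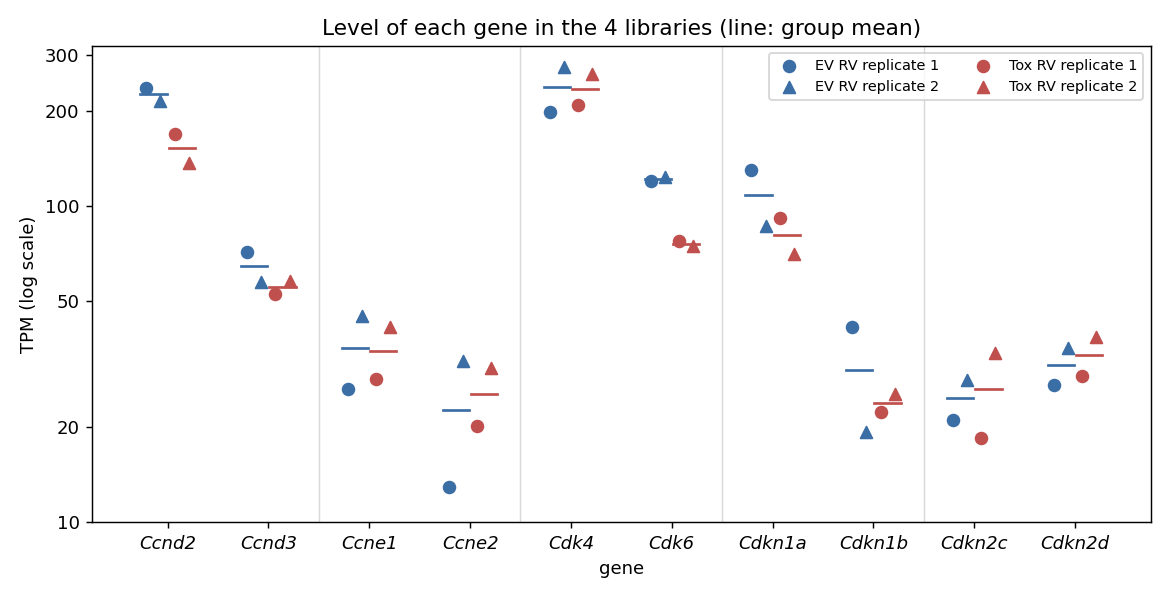
Level of each of the 10 genes in TPM (log axis) in EV RV (blue) and Tox RV (red) libraries, with circles for replicate 1, triangles for replicate 2 and a line at the mean of each group (n = 2). For Ccnd2 and Cdk6 both red points lie below both blue points, while for the other genes the colours overlap or, for Ccnd3, nearly coincide at 57.6 and 57.9 TPM.

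*Ccnd2*, which encodes cyclin D2, lay at chr6:127125162-127152193 (minus strand, mm10) and was the main D-type cyclin in these cells. Its level was 236 and 214 TPM in the EV RV libraries and 169 and 136 TPM in the Tox RV libraries. The Tox RV values were both under both EV RV values, and the Tox RV replicates differed more from each other than the EV RV replicates did. In CPM, the EV RV mean was 775 ± 24.8 (SD, n = 2) and the Tox RV mean 557 ± 84.3 (SD, n = 2). The fitted level in Tox RV was 0.718 of that in EV RV (log2 fold change -0.48, SE 0.18, 95% interval -0.92 to -0.03), with an adjusted p of 0.897 in edgeR's quasi-likelihood test. Estimates with 1 library removed ran from -0.65 to -0.33.

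*Ccnd3*, which encodes cyclin D3 and lay at chr17:47505051-47599691 (plus strand), was lower than *Ccnd2* in every library. It stood at 71.6 and 57.6 TPM in EV RV and at 52.5 and 57.9 TPM in Tox RV, so that the groups met at the level of EV RV replicate 2. Its log2 fold change came to -0.15 (SE 0.18, 95% interval -0.59 to 0.30), and it was -0.015 both without EV RV replicate 1 and with scaling by library totals. The summed TPM of both D-type cyclins was 307 and 272 in EV RV against 221 and 194 in Tox RV, with no overlap between the groups. *Ccnd2* made up 70.2% to 78.8% of this sum and did not overlap by itself, so the sum is not a separate result. *Ccnd1*, the third D-type cyclin, did not exceed 1.43 TPM in any library.

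*Cdk6*, at chr5:3341485-3531008 (plus strand), is one of the kinases that cyclin D activates. It had 120 and 123 TPM in EV RV and 77.5 and 74.5 TPM in Tox RV. The replicates of each group lay close together and the groups were well apart. The CPM means were 173 ± 9.20 (SD, n = 2) in EV RV and 115 ± 3.23 (SD, n = 2) in Tox RV. The fitted level in Tox RV was 0.661 of that in EV RV (log2 fold change -0.60, SE 0.16, 95% interval -0.99 to -0.20). This was the largest difference among the 10 genes and the 87th smallest p-value of the 14143, at an unadjusted p of 0.0108 and an adjusted p of 0.897 in edgeR's quasi-likelihood test. DESeq2 gave the same estimate to 2 decimals with an adjusted p of 0.523. The estimate was the steadiest of the 10 when a library was left out, between -0.66 and -0.54.

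*Cdk4*, at chr10:127063534-127067920 (plus strand), encodes the other cyclin D kinase. Its level was 198 and 275 TPM in EV RV and 208 and 261 TPM in Tox RV. Replicate 2 was the higher library of each group, and the group means nearly coincided. The log2 fold change was 0.06 (SE 0.24, 95% interval -0.54 to 0.67). The interval of *Cdk6*, -0.99 to -0.20, overlapped this one. The 2 kinases are compared directly below, as a share of their summed level.

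The start-site regions of these 2 kinases are shown because both hold the E-box letters CACGTG, a sequence that Myc and its partner Max can bind and that *Cdk4* carries several times. They come from RefSeq's promoter windows on GRCm38.p6, the build of mm10, with E-boxes in capitals. Parts that GENCODE M21 annotates as exon are left out, as is the stretch of the *Cdk6* window between such an exon and the start site, which holds no E-box. The first is chr10:127063285-127063533, 249 bases that end at the *Cdk4* start site, and the second is chr5:3343643-3343731, 89 bases at the upstream end of the *Cdk6* window, which a longer annotated *Cdk6* transcript spans as intron. Both are on the plus strand.
Cdk4: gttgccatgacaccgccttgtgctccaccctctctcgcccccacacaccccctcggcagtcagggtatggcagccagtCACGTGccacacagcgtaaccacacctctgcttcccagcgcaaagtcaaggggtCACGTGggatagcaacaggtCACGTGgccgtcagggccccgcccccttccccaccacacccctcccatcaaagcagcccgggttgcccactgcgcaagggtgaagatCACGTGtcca
Cdk6: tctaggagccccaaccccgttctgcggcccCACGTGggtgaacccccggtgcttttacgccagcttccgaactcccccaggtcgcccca
*Cdk4* had 4 E-boxes, which began 172, 118, 98 and 11 bases before the RefSeq start, and *Cdk6* had 1, which began 220 bases before it. Of all 32851 windows, 6.02% held CACGTG within the 250 bases before the start. RefSeq windows were at hand for 8 of the 10 genes (11 windows), and *Ccnd2* and *Ccne2* had none in the table. Searched on both strands, the E2F letters TTGGCGC, the form TTCCCGC, the form TTGCCGC and the form TTCGCGC were found in 1 member, *Cdkn2c*, and in 7.89% of all windows. The FOXO letters GTAAACA were found in 1, *Ccnd3*, and in 3.17% of all windows. These are matches of letters and not evidence of binding. Of the 2 genes with E-boxes, *Cdk6* had its Tox RV pair wholly below its EV RV pair, while the groups overlapped for *Cdk4*. Whether the E-boxes bear on the level of either gene was not tested.

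**Figure D2:**
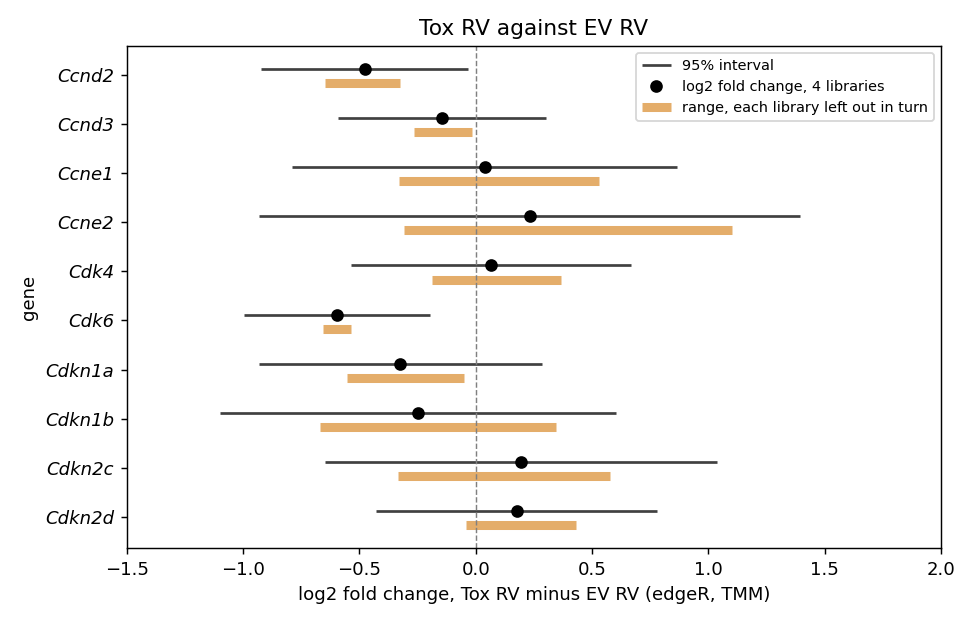
Log2 fold change of Tox RV over EV RV for each of the 10 genes from edgeR with TMM scaling (points, all 4 libraries) with its 95% interval (thin line), above the range of estimates with each library left out in turn (orange bar). The intervals of Ccnd2 and Cdk6 end below 0, at -0.03 and -0.20, before adjustment for the number of genes tested, and the other 8 cross 0.

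The E-type cyclins differed more between replicates than between groups. *Ccne1*, at chr7:38097984-38107534 (minus strand), encodes cyclin E1 and stood at 26.3 and 44.8 TPM in EV RV and at 28.3 and 41.3 TPM in Tox RV. *Ccne2*, at chr4:11191351-11204779 (plus strand), encodes cyclin E2 and stood at 12.9 and 32.4 TPM in EV RV and at 20.1 and 30.8 TPM in Tox RV. For both genes, replicate 2 exceeded replicate 1 in each group, and the Tox RV values lay within the EV RV range. On the log2 scale of CPM, replicate 2 of EV RV exceeded replicate 1 by 0.84 for *Ccne1* and by 1.40 for *Ccne2*, and the corresponding Tox RV gaps were 0.54 and 0.61. The log2 fold changes between the groups were 0.04 (SE 0.34, 95% interval -0.79 to 0.87) for *Ccne1* and 0.23 (SE 0.47, 95% interval -0.93 to 1.39) for *Ccne2*. Without EV RV replicate 1 they became -0.33 and -0.31. Both intervals, which are not adjusted for the number of genes tested, include changes in either direction.

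Among the CIP/KIP inhibitors, *Cdkn1a*, at chr17:29090976-29100727 (plus strand), encodes p21, a target of p53 that is also induced by T cell activation. It stood at 130 and 86.1 TPM in EV RV and at 91.7 and 70.3 TPM in Tox RV. Replicate 1 was the higher of each group, and Tox RV replicate 1 lay between the EV RV libraries. Its log2 fold change came to -0.32 (SE 0.25, 95% interval -0.93 to 0.28) and moved to -0.05 without EV RV replicate 1. *Cdkn1b*, at chr6:134920401-134925513 (plus strand), encodes p27 and stood at 41.3 and 19.3 TPM in EV RV and at 22.3 and 25.4 TPM in Tox RV. Its highest and its lowest value were the EV RV libraries, with both Tox RV libraries between them. The log2 fold change was -0.25 (SE 0.34, 95% interval -1.10 to 0.60), and it turned to 0.34 without EV RV replicate 1.

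Among the INK4 inhibitors, *Cdkn2c*, at chr4:109660876-109667189 (minus strand), encodes p18 and stood at 21.1 and 28.2 TPM in EV RV and at 18.5 and 34.3 TPM in Tox RV. The Tox RV libraries were its lowest and its highest. *Cdkn2d*, at chr9:21288410-21291407 (minus strand), encodes p19 and stood at 27.2 and 35.6 TPM in EV RV and at 28.9 and 38.4 TPM in Tox RV. As with the E-type cyclins, replicate 2 was the higher library of each group for both genes. The log2 fold changes were 0.19 (SE 0.34, 95% interval -0.65 to 1.04) for *Cdkn2c* and 0.18 (SE 0.24, 95% interval -0.43 to 0.78) for *Cdkn2d*, and both moved to values between -0.04 and -0.02 without EV RV replicate 1. The remaining inhibitors of these families were near the bottom of the range, with at most 1.47 TPM for *Cdkn2a*, 1.78 TPM for *Cdkn2b* and 0.60 TPM for *Cdkn1c*, in any library.

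TPM is a level per transcript length, so it also allows the 10 genes to be set against each other. By the mean of the 4 libraries, *Cdk4* was highest at 236 TPM and *Ccnd2* next at 189 TPM, an order kept in 3 of 4 libraries and turned round in EV RV replicate 1. *Cdk6* at 98.8 TPM and *Cdkn1a* at 94.4 TPM followed and were not ordered, since each was the higher in 2 libraries. *Ccnd3*, with a mean of 59.9 TPM, was below these 4 and above the other 5 in every library. The other 5 genes had means of 24.0 to 35.2 TPM. Among them *Ccne1* stood above *Cdkn2d* in 2 of 4 libraries, *Cdkn2d* above *Cdkn1b* in 3, *Cdkn1b* above *Cdkn2c* in 2 and *Cdkn2c* above *Ccne2* in 2. *Cdkn1b* showed the largest move in rank, from place 6 of the 10 in EV RV replicate 1 to place 10 in EV RV replicate 2, which carry the same vector.

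The make-up of each family was followed as a share of its summed TPM, which does not depend on how libraries are scaled. *Cdk6* made up 37.7% and 30.9% of the summed *Cdk4* and *Cdk6* transcripts in EV RV against 27.1% and 22.2% in Tox RV, a mean difference of -9.67 percentage points (-6.28 without EV RV replicate 1). The groups did not overlap, yet 2 libraries against 2 cannot give a two-sided exact permutation p below 0.333, which was the value here (0.8 after adjustment over the 6 shares tested). *Ccnd2* made up 76.7% and 78.8% of the D-type cyclin transcripts in EV RV against 76.2% and 70.2% in Tox RV, again without overlap and at the same exact permutation p of 0.333. Its difference of -4.54 points rested on Tox RV replicate 2, without which it was -1.51. The groups overlapped for the other 4 shares. *Ccne1* was 57.3% to 67.1% of the E-type cyclins, *Cdkn1a* 73.5% to 81.7% of the CIP/KIP pair and *Cdkn2c* 39.0% to 47.1% of the INK4 pair. The CIP/KIP pair made up 78.0% and 62.3% of all 4 inhibitors in EV RV against 70.6% and 56.8% in Tox RV, with replicate 1 the higher in each group.

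**Figure D3:**
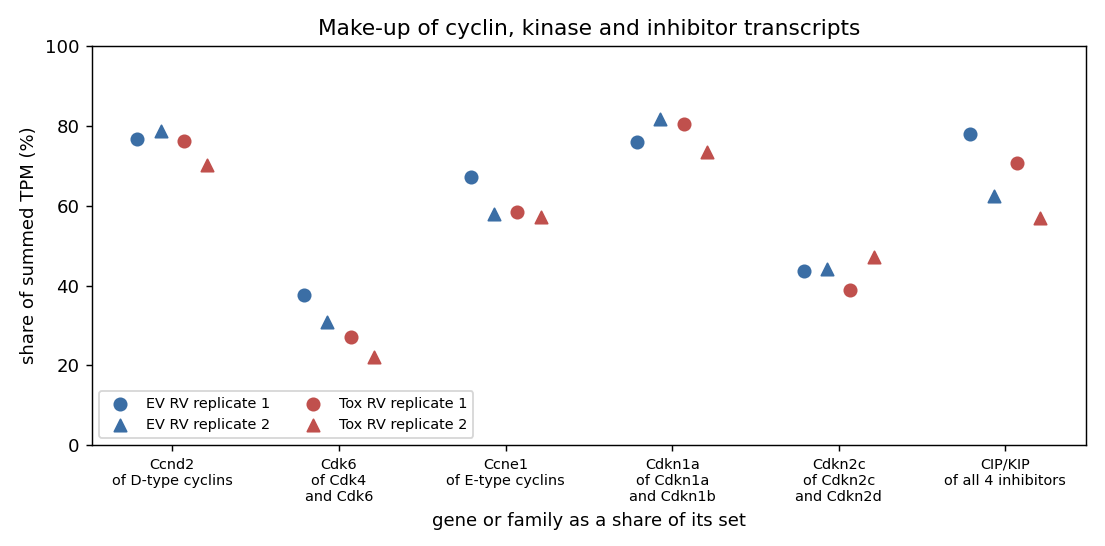
Share of one gene in the summed TPM of its family, and of the CIP/KIP pair in all 4 inhibitors, in percent for each library (EV RV blue, Tox RV red, circles replicate 1, triangles replicate 2). The Cdk6 share falls into separate ranges, 30.9% to 37.7% in EV RV and 22.2% to 27.1% in Tox RV, and the Ccnd2 share separates narrowly, with 76.7% against 76.2% at its nearest values, while the other 4 overlap.

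RSEM's effective length of a gene is the mean length of its transcripts weighted by their estimated abundance, so that it shifts when the mix of transcripts shifts. For 6 of the 10 genes a single transcript was quantified and the length could not vary. For the other 4, the difference between groups was smaller than the larger gap between replicates. *Cdkn2c*, with 2 transcripts, varied most, at 1752 and 1695 bases in EV RV against 1718 and 1758 bases in Tox RV. *Ccnd3*, with 3 transcripts, stood at 1888 and 1859 bases in EV RV and at 1868 and 1866 bases in Tox RV. Of the 10 genes, 4 share exon bases with a gene on the opposite strand that was also quantified, and use of strand in counting is not stated. These are *Ccnd2* with *9330179D12Rik* (368 bases), *Ccnd3* with *Bysl* (361), *Ccne2* with *Ints8* (609) and *Cdk4* with *Tspan31* (641). Reads in those stretches cannot be assigned with certainty. The partner of *Ccnd2* did not exceed 1.54 TPM. *Ints8* stood at 26.6 to 27.8 TPM, against 12.9 to 32.4 TPM for *Ccne2*. It was higher than *Ccne2* in replicate 1 of both groups and lower in replicate 2 of both.

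Lists of genes around the G1 machinery, none of whose members passed an adjusted p of 0.05 in edgeR or in DESeq2, give the surroundings of the 10 genes. Among 24 other G1/S regulators (further cyclins, CDKs, Rb and E2F family members), 14 were higher and 10 lower in Tox RV with a median log2 fold change of 0.12. Its most abundant gene was *Tfdp1*, an E2F partner, at 0.15 (SE 0.24). Among 19 genes for the turnover of G1 cyclins and inhibitors, 13 were higher and 6 lower with a median of 0.05, and the most abundant, the replication clamp *Pcna*, was at 0.23 (SE 0.31). One turnover gene had an unadjusted p under 0.05, the ubiquitin ligase *Ubr4* at -0.61, named after its value was seen. Without EV RV replicate 1 the medians of these lists were -0.12 and -0.07, without Tox RV replicate 2 they were -0.00088 and -0.08, and with limma on log2(TPM + 1) that of the turnover list was -0.01.

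Genes that are switched on downstream of the G1 machinery differed between the replicates of a group in the same direction in EV RV and Tox RV. Of 20 E2F target genes, 13 were higher and 7 lower in Tox RV with a median of 0.06, and replicate 2 exceeded replicate 1 for 19 of them in EV RV and for 20 in Tox RV. Of 15 mitotic genes, 13 were higher and 2 lower with a median of 0.15, and replicate 2 exceeded replicate 1 for 14 in EV RV and 15 in Tox RV. The median of the E2F targets was -0.22 without EV RV replicate 1, -0.23 without Tox RV replicate 2 and 0.52 without EV RV replicate 2, and that of the mitotic genes was -0.20, -0.30 and 0.65 in the same order. Both medians turned below 0 without EV RV replicate 1 and without Tox RV replicate 2, and stayed above 0 without EV RV replicate 2. The groups separated for 0 genes of either list, while among all genes tested the Tox RV pair lay wholly below in 17.4% and wholly above in 18.6%. The most abundant of each list were the replicative helicase subunit *Mcm6*, at -0.04 (SE 0.23), and the topoisomerase *Top2a*, at 0.15 (SE 0.38). Centred on each gene's mean over the 4 libraries, the median log2 CPM of the E2F targets was -0.46 and 0.34 in EV RV against -0.21 and 0.34 in Tox RV, and that of the mitotic genes -0.51 and 0.34 in EV RV against -0.33 and 0.48 in Tox RV. Among the 10 genes, *Ccne1*, *Ccne2*, *Cdk4*, *Cdkn2c* and *Cdkn2d* were likewise higher in replicate 2 of both groups.

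**Figure D4:**
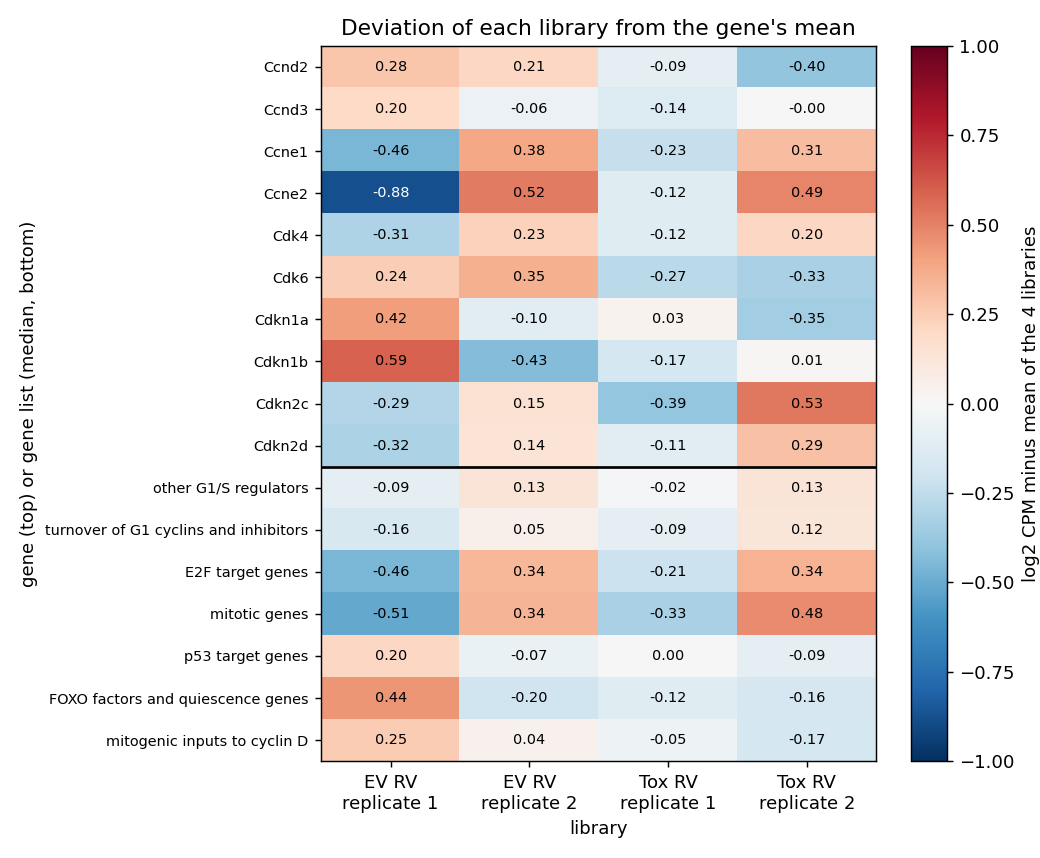
Deviation of each library from the mean of the 4 libraries, in log2 CPM, for the 10 genes (top) and as the median over each gene list (bottom), with red above and blue below the mean. Ccnd2 and Cdk6 change colour between the EV RV and Tox RV columns, whereas Ccne1, Ccne2, Cdk4, Cdkn2c and Cdkn2d and the E2F target and mitotic lists are blue in replicate 1 and red in replicate 2 of both groups.

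The p53 and FOXO lists hold genes upstream of the inhibitors and other targets of the same factors. Of 19 genes of the p53 list, which includes *Trp53* itself, 6 were higher and 13 lower with a median of -0.15. The median was 0.08 without EV RV replicate 1 and -0.02 with scaling by library totals. For 5 of the 19 the Tox RV pair lay wholly above the EV RV pair, against 18.6% of all genes tested. For 4 of the 19 it lay wholly below, against 17.4% of all genes tested. The most abundant, the cyclin-like *Ccng1*, was at 0.27 (SE 0.16) with the Tox RV pair above the EV RV pair. Of 18 FOXO factors and quiescence genes, 1 was higher and 17 lower with a median of -0.26. The one higher was also the most abundant, the Schlafen family member *Slfn2*, at 0.17 (SE 0.16). For 3 of the 18 the Tox RV pair lay wholly below the EV RV pair, against 17.4% of all genes tested. It lay wholly above for 1, against 18.6%, and 0 of the 18 had an unadjusted p under 0.05 in edgeR. This list was highest in EV RV replicate 1, with centred medians of 0.44 and -0.20 in EV RV against -0.12 and -0.16 in Tox RV, and its median turned to 0.09 without that library.

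The list of mitogenic inputs to cyclin D covered IL-2 receptor, STAT5, Myc, PIM, AKT, mTOR, NF-κB and Notch genes and *Egr1*. It also held inhibitory genes, among them *Eif4ebp1*, *Gsk3b* and *Mxd4*, whose log2 fold changes were below 0. Its counts therefore do not measure the strength of these inputs. Of its 23 genes, 22 were tested. In Tox RV 2 were higher and 20 lower (median log2 fold change -0.19). For 12 of the 22 the Tox RV pair lay wholly below the EV RV pair, against 17.4% of all genes tested. The most abundant, the IL-2 receptor β chain gene *Il2rb*, was at -0.11 (SE 0.16) with the groups overlapping. At an unadjusted p under 0.05 there were 4 of the 22, all lower, where 2.55% of all genes were both. The list was chosen with earlier results of these data known, so these counts are not independent of the data. The 4 genes are named after their values were seen. The transcription factor gene *Myc* stood at 168 and 117 TPM in EV RV and at 100 and 80.3 TPM in Tox RV (log2 fold change -0.57). The kinase gene *Pim2* stood at 63.2 and 53.6 TPM in EV RV and at 36.3 and 32.5 TPM in Tox RV (-0.68). *Eif4ebp1*, a translation repressor controlled by mTOR, stood at 70.1 and 64.8 TPM in EV RV and at 42.9 and 42.2 TPM in Tox RV (-0.58), and *Mycn* did not exceed 1.06 TPM (-1.60). All had an adjusted p of 0.897 by edgeR. The median of the list was -0.10 without EV RV replicate 1 and -0.07 with scaling by library totals, a setting that moved the median of all genes by 0.12.

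The profile of each gene over the 4 libraries was set beside those of the other 9 and the 24 G1/S regulators, by the root mean square difference of centred log2 CPM. *Ccnd2* and *Cdk6* were each other's closest, at 0.12, and *Ccnd2* was also the closest to *Cdkn1a*, at 0.18. *Cdk4* and *Cdkn2d* both lay closest to *Tfdp1*, each at 0.04. *Ccne1* and *Cdkn2c* were closest to *Cdk2*, the kinase of the E-type cyclins, at 0.07 and 0.13, and *Ccne2* to the S phase cyclin gene *Ccna2*, at 0.24. *Ccnd3* and *Cdkn1b* were closest to *Rb1*, at 0.08 and 0.23. For scale, a gene's own root mean square deviation from its mean was 0.27 for *Ccnd2*, 0.30 for *Cdk6* and 0.28 for *Cdkn1a*. It was 0.23 for both *Cdk4* and *Cdkn2d*, 0.36 for *Ccne1*, 0.37 for *Cdkn2c* and 0.57 for *Ccne2*. For *Ccnd3* and *Cdkn1b* it was 0.13 and 0.38. The distances rest on 4 libraries that share a scaling, and they describe likeness in these libraries only.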

How the data were processed

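Per the methods, the authors used FastQC for read quality, Bowtie for alignment to transcripts of mm10 and RSEM for quantification, and each deposited file holds 1 library. The submitters' processing notes also list Bowtie2 and DESeq2, and no versions are given in the sources used here. The deposited expected counts are not normalized, and the deposited TPM values are RSEM's, per 1000000 transcripts. A further deposited table of the series, named as TPM, was not used because its columns do not sum to 1000000. Expected counts were rounded and compared in R 4.3.3 with edgeR 4.0.16 (filterByExpr with a minimum count of 10, TMM, quasi-likelihood test, all 4 libraries, no block, common biological coefficient of variation 0.232). The 95% intervals use the t distribution with 5.77 degrees of freedom. Log2 CPM used a prior count of 2. Shares of TPM were compared with exact two-sided permutation tests. Alternatives were DESeq2 1.42.0, limma 3.58.1 on log2(TPM + 1) and log2(TPM + 0.1), median-of-ratios scaling, library totals, TMM without *Rn45s*, no low-count filter, the replicate number as a block, and each library left out. Genes were placed with GENCODE M21.

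The 10 genes, the lists and the markers were chosen with earlier results of these data known. Named in the text were the 10 genes, *Tox*, *Rn45s*, the most abundant gene of each list, list genes with an adjusted p below 0.05 (there were 0) and the closest gene to each of the 10. Other genes were chosen after their values were seen, among them those listed at low TPM, the overlapping genes and the markers named. Each group represents 2 mice. The p-values of the fits set the difference between groups against the spread between these libraries, estimated with information shared across genes. The permutation p-values of the shares rest on the ways of relabelling the 4 libraries.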

Additional observations from a re-analysis of the deposited data

How the results depend on the processing

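None of the 10 genes was called under any of the 12 alternatives, and the log2 fold changes of *Ccnd2*, *Ccnd3*, *Cdk6* and *Cdkn1a* were below 0 in all of them. With scaling by library totals *Cdk6* was at -0.48 and *Ccnd2* at -0.36. The number of genes called among all tested was 0 in the quasi-likelihood test, 22 in DESeq2, 22 when low counts were kept, 16 in the fit with the replicate block, and 1 to 600 with a library left out, the highest without EV RV replicate 2 and the lowest without EV RV replicate 1. A fit without 1 library sets 1 library against 2, so its spread comes from the remaining pair and the lone library is assumed to vary likewise. The number of list genes called was 0 and ranged from 0 to 9, with 9 without EV RV replicate 2. With the replicate block the adjusted p was 0.339 for *Cdk6* and 0.489 for *Ccnd2*, and no call among the 10 genes changed. The labels do not say that a shared number marks a shared mouse, and the replicate differences of the groups correlated at 0.30 across genes.

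Directions turned for 6 genes. With limma on log2(TPM + 1) and log2(TPM + 0.1), *Ccne1* moved from 0.04 to -0.0077 and -0.0073, and *Cdk4* from 0.06 to -0.0018 and -0.0018. With a library left out, the ranges were -0.33 to 0.53 for *Ccne1*, -0.31 to 1.10 for *Ccne2*, -0.19 to 0.37 for *Cdk4*, -0.67 to 0.34 for *Cdkn1b*, -0.33 to 0.58 for *Cdkn2c* and -0.04 to 0.43 for *Cdkn2d*. All 6 turned without EV RV replicate 1 (*Cdkn2d* to -0.0401), and all except *Cdkn1b* without Tox RV replicate 2. The cause was not tested. The part of depth in these limits was not tested.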
